A study of Mus musculus with 9 samples.

Results

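The pathway that makes and senses oxysterols was followed in fetal pulmonary lymphatic endothelial cells (PLECs) through 6 genes: *Ch25h*, *Cyp7b1*, *Hsd3b7*, *Gpr183*, *Nr1h2* and *Nr1h3*. They were chosen by name, as members of 1 pathway, from the 25206 genes of the arrays, and all 6 were matched by Entrez Gene number. PLECs were sorted from lungs of C57BL/6N mouse embryos by the surface phenotype CD45-/Epcam-/CD31+/Vegfr3+/Lyve1+/Pdpn+ at E16.5, at E17.5 and at E18.5 (embryonic days), with 3 samples per day. The animals carried no engineered allele and received no treatment, and the labels separate the groups by gestational age. No collection or sort batch is named, so one that followed the day could not be told apart from it. Each sample was a pool of 10 to 21 lungs from 2 litters, and the p-values measure the spread between such pools. Total RNA was measured on Mouse Gene 2.0 ST arrays, 1 per sample. Values are log2 expression values after RMA (background correction, quantile normalization and summary per gene), on which 1 unit is a doubling of signal. Each gene has its own probes, so levels are given relative to the array medians (3.79 to 3.91) and are not ranked between genes.

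Oxysterols are oxidized forms of cholesterol that act as signals. *Ch25h* encodes the enzyme that hydroxylates the side chain of cholesterol, and *Cyp7b1* encodes the hydroxylase that turns the product into the ligand of *Gpr183* (EBI2), a receptor that guides B cells, T cells and dendritic cells in lymphoid tissue. *Hsd3b7*, a steroid dehydrogenase that also serves bile acid synthesis, removes that ligand. *Nr1h2* and *Nr1h3* encode the nuclear receptors LXRβ and LXRα, which bind other oxysterols and switch on genes of cholesterol export and fatty acid synthesis.

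Of the 6 genes, *Ch25h* had the largest change. It was 3.32-fold higher in E18.5 than in E16.5 PLECs (95% interval 1.70 to 6.47) and lay above the earlier day at each step. *Hsd3b7* was 1.68-fold higher (95% interval 0.956 to 2.95) and did not pass the test, although each E18.5 sample lay above each E16.5 sample. *Cyp7b1* and *Gpr183* stayed near or below the array median, and both LXR genes kept overlapping levels over the 3 days. The plot of log2 values by day shows the 9 samples of each gene.

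**Figure D1:**
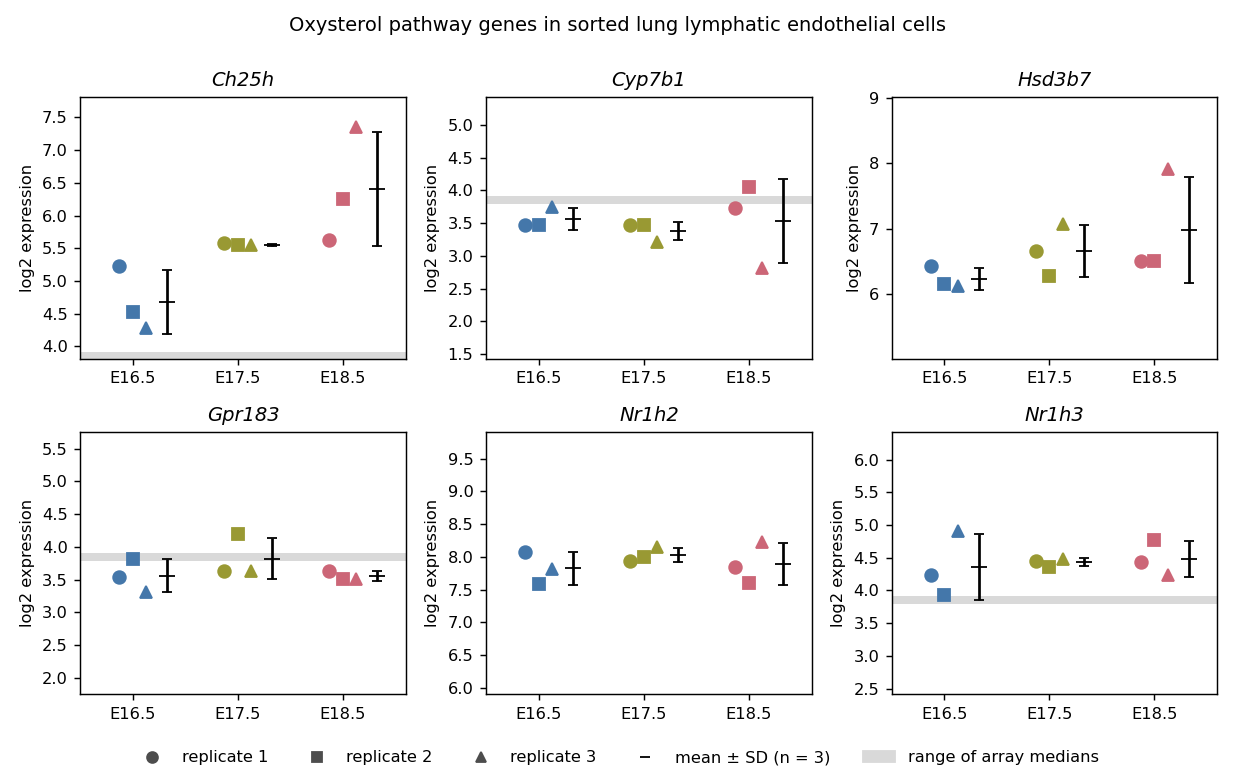
Log2 expression (y axis, 4 units in each panel) of the 6 genes in each PLEC sample by embryonic day (x axis). Symbols mark the replicate, the black bar is the mean ± SD of 3 samples, and the grey band is the range of the 9 array medians, 3.79 to 3.91. *Ch25h* lies higher on each day than on the day before, *Cyp7b1* and *Gpr183* lie near the band, and E18.5 replicate 3 stands apart for *Ch25h* and *Hsd3b7*.

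*Ch25h* lies at chr19:34473783-34475148 (GRCm38.p6, minus strand). It measured 5.23, 4.52 and 4.28 in the E16.5 samples, 5.57, 5.54 and 5.54 in the E17.5 samples, and 5.62, 6.26 and 7.35 in the E18.5 samples. All E17.5 samples were above all E16.5 samples, and all E18.5 samples were above all E17.5 samples. The first of these steps was free of overlap, upward, in 8.19% of the 14096 tested genes and the second in 8.37%, and both held for 137 genes (0.972%). The means were 4.68 ± 0.49 at E16.5, 5.55 ± 0.018 at E17.5 and 6.41 ± 0.87 at E18.5 (SD, n = 3 each), and every sample was above its array median.

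The log2 change of *Ch25h* between E18.5 and E16.5 was 1.73 (SE 0.42, 95% interval 0.77 to 2.69, FDR q = 0.040, limma), in a comparison where 3.71% of tested genes were called higher. With the variance prior estimated on all 25206 genes instead of the tested genes, the same change had an FDR q of 0.055 by limma and was not called. The moderated F test over the 3 days gave FDR q = 0.040, and 0.045 with that other prior, where 7.87% of tested genes were called. That call was lost with no filter on low values (FDR q = 0.078, limma) and on leaving out any 1 of 6 of the 9 samples (FDR q = 0.061 to 0.13, limma). The study had itself listed *Ch25h* from these samples at a looser limit, with an FDR q of 0.055 by limma. That value is above the 0.05 used for calls here, and the call is not independent evidence of the direction of *Ch25h*. Of the tested genes, 98 (0.695%) had a log2 change between these days at least as high.

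Neither daily step of *Ch25h* passed alone. E17.5 exceeded E16.5 by a log2 value of 0.88 (95% interval 0.053 to 1.70, FDR q = 0.35, limma), and E18.5 exceeded E17.5 by 0.86 (95% interval 0.033 to 1.68, FDR q = 0.29, limma). At the first step limma called 0% of tested genes higher (661 genes at an unadjusted p under 0.05) and 0.156% lower, and at the second 1.14% higher and 0.638% lower. The second step minus the first was -0.02, with a 95% interval of -1.45 to 1.40, so a difference between the steps of more than 1 log2 unit in either direction lies within the error. In the test of that difference 0% of genes were called in either direction (limma, with 597 positive and 391 negative differences at an unadjusted p under 0.05).

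The call of *Ch25h* at E18.5 was lost on leaving out most single samples, in fits that also had fewer arrays. E18.5 replicate 3 lay 1.09 above the next sample of the 9, and without it the log2 change was 1.26 (FDR q = 0.053, limma). Removing replicate 1, 2 or 3 of E16.5, or replicate 2 of E18.5, gave changes of 2.01, 1.65, 1.53 and 1.81, with FDR q values of 0.059, 0.13, 0.14 and 0.10 by limma. Of these 6 exclusions, only that of E18.5 replicate 1 left it called (log2 change 2.12, FDR q = 0.031, limma). The change stayed positive in each of these fits. It was larger than the 1.73 of the full fit without E16.5 replicate 1, E18.5 replicate 1 or E18.5 replicate 2, and smaller without the others. The spread of *Ch25h* within days was at or above that of 97.7% of tested genes, and its SD ran over a wide range, being 0.018 at E17.5 and 0.87 at E18.5. Replicates 2 and 3 of E17.5 had the same summarized value (5.54), which lowers the SD of that day.

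*Cyp7b1*, at chr3:18071944-18243890, supplies the second enzyme of the ligand's synthesis. It measured 3.46, 3.46 and 3.75 in E16.5 PLECs, 3.46, 3.46 and 3.22 in E17.5 PLECs, and 3.73, 4.05 and 2.81 in E18.5 PLECs. Its lowest and its highest sample both belong to E18.5, and the days overlapped. A single sample, E18.5 replicate 2, was above its array median, and the gene entered the tests through that sample. In 4 of the 9 samples its value was the same, 3.46, and 32.0% of tested genes had fewer than 9 distinct values. E18.5 PLECs differed from E16.5 PLECs by a log2 value of -0.03 (95% interval -0.70 to 0.64, FDR q = 0.96, limma). That interval covers folds of 0.615 to 1.56, and since the signal is near background a larger change in the transcript could be hidden.

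*Hsd3b7*, which clears the ligand, lies at chr7:127800609-127803802 (plus strand). Its values were 6.42, 6.15 and 6.12 at E16.5, 6.66, 6.27 and 7.07 at E17.5, and 6.51, 6.51 and 7.92 at E18.5. Each E18.5 sample was above each E16.5 sample, which held for 11.9% of tested genes, while E17.5 overlapped with both other days. The means were 6.23 ± 0.17, 6.67 ± 0.40 and 6.98 ± 0.81 in day order (SD, n = 3 each), all above the array medians. The log2 change between E18.5 and E16.5 was 0.75 (SE 0.36, 95% interval -0.065 to 1.56, FDR q = 0.23, limma), and without E18.5 replicate 3 it was 0.28 (FDR q = 0.33, limma). The neighbouring days differed by 0.44 for E17.5 against E16.5 (FDR q = 0.61, limma) and by 0.31 for E18.5 against E17.5 (FDR q = 0.71, limma), a difference that turned to -0.16 without E18.5 replicate 3.

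E18.5 replicate 3 had the highest of the 9 values for *Ch25h*, *Hsd3b7* and *Nr1h2* and the lowest for *Cyp7b1*. It was the highest sample for 13.3% of tested genes. Over the 9 samples *Ch25h* and *Hsd3b7* had a Pearson r of 0.84, and *Cyp7b1* had an r of -0.76 with *Hsd3b7* and of -0.78 with *Nr1h2*. These values describe 9 samples that share days and arrays, and E18.5 replicate 3 is an extreme of each of these genes.

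The 250 bases before the start of *Ch25h* and *Hsd3b7* are shown because these 2 genes had the 2 largest log2 differences between E18.5 and E16.5 among the 6, although that of *Hsd3b7* did not pass the test. They are RefSeq sequences of build GRCm38.p6, at chr19:34475149-34475398 (minus strand) and chr7:127800359-127800608 (plus strand), written 5′ to 3′ toward the start, with motif matches in capitals.
Ch25h: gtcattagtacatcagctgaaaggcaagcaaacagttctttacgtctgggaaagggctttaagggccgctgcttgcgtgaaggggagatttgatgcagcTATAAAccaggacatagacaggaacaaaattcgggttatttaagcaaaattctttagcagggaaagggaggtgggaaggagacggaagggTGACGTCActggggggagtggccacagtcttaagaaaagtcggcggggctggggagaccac
Hsd3b7: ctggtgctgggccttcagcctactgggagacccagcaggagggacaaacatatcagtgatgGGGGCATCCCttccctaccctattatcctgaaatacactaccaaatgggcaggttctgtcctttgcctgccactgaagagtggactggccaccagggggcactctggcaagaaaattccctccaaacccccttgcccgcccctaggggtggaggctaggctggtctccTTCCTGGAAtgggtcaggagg
In the *Ch25h* window the letters TGACGTCA, the palindromic cyclic AMP response element (CRE) bound by CREB and ATF factors, begin at base -61, counted back from the start with -1 next to it, and TATAAA at base -151. Of 32851 windows of this length, 1.55% hold TGACGTCA and 12.4% hold TATAAA on either strand. The window has no match to the interferon response core, which is a pair of GAAA repeats 2 bases apart (2.98% of windows), the STAT motif TTCNNNGAA (7.02%), the AP-1 motif TGANTCA (6.75%), the NF-kB site (7.25%), the Ets motif CCGGAAG (6.91%) or the LXR element, which is a pair of AGGTCA repeats 4 bases apart (0.0152%), each searched on both strands. The *Hsd3b7* window has 1 match to the STAT motif, beginning at base -21, and 1 NF-kB site, beginning at base -189. The *Nr1h2* window holds 3 matches to the Ets motif, and those of *Gpr183* and *Nr1h3* hold no match to any motif searched. *Cyp7b1* was not analysed here for motifs. A match describes letters only.

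*Gpr183*, the receptor, lies at chr14:121952331-121965193. It measured 3.54, 3.82 and 3.32 at E16.5, 3.64, 4.19 and 3.64 at E17.5, and 3.64, 3.51 and 3.51 at E18.5. The days overlapped, and only replicate 2 of E16.5 and replicate 2 of E17.5 were above their array medians. E18.5 PLECs differed from E16.5 PLECs by a log2 value of -0.0065 (95% interval -0.38 to 0.37, FDR q = 0.98, limma), which corresponds to folds of 0.767 to 1.29. E17.5 against E16.5 gave 0.26 (FDR q = 0.56, limma) and E18.5 against E17.5 gave -0.27 (FDR q = 0.51, limma).

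The B cells, T cells and dendritic cells that *Gpr183* guides had been gated out by CD45, and most of their markers were above the array median in few or no samples. *Ptprc*, which encodes CD45, was above the array median in 1 of 9 samples. Of 6 B cell markers, 4 were above the median in no sample, as were all T cell markers except *Lck* (6 of 7) and 4 of 8 dendritic cell markers. None of the tested B cell (2), T cell (1) or dendritic cell (4) markers passed the test between E18.5 and E16.5. The others were measured above it: *Cd79b* of the B cell list and *Zbtb46* and *Batf3* of the dendritic cell list in all 9 samples, and *Clec9a* and *Ccr7* of the dendritic cell list in 5 samples each, while *Pax5* was above it in 2 samples and *Lck* in 1. The 2 B cell markers tested were *Cd79b*, with a log2 change of -0.68 (FDR q = 0.10, limma), and *Pax5*, with 0.21 (FDR q = 0.43, limma). *Zbtb46* and *Batf3*, transcription factors placed on the dendritic cell list, had log2 changes of 0.25 and -0.14 (FDR q = 0.40 and 0.74, limma).

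Both LXR genes were above the array median in all 9 samples. *Nr1h2* (LXRβ, chr7:44549616-44553968) measured 8.08, 7.58 and 7.81 at E16.5, 7.93, 8.001 and 8.15 at E17.5, and 7.84, 7.60 and 8.23 at E18.5. *Nr1h3* (LXRα, chr2:91184061-91202829) measured 4.24, 3.92 and 4.92 at E16.5, 4.46, 4.36 and 4.49 at E17.5, and 4.43, 4.78 and 4.24 at E18.5. The days overlapped for both. Between E18.5 and E16.5 the log2 change was 0.07 for *Nr1h2* (95% interval -0.40 to 0.54, FDR q = 0.86, limma) and 0.12 for *Nr1h3* (95% interval -0.48 to 0.72, FDR q = 0.81, limma). These intervals correspond to folds of 0.756 to 1.45 and of 0.717 to 1.65. The plot of changes with their intervals sets the 6 genes side by side.

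**Figure D2:**
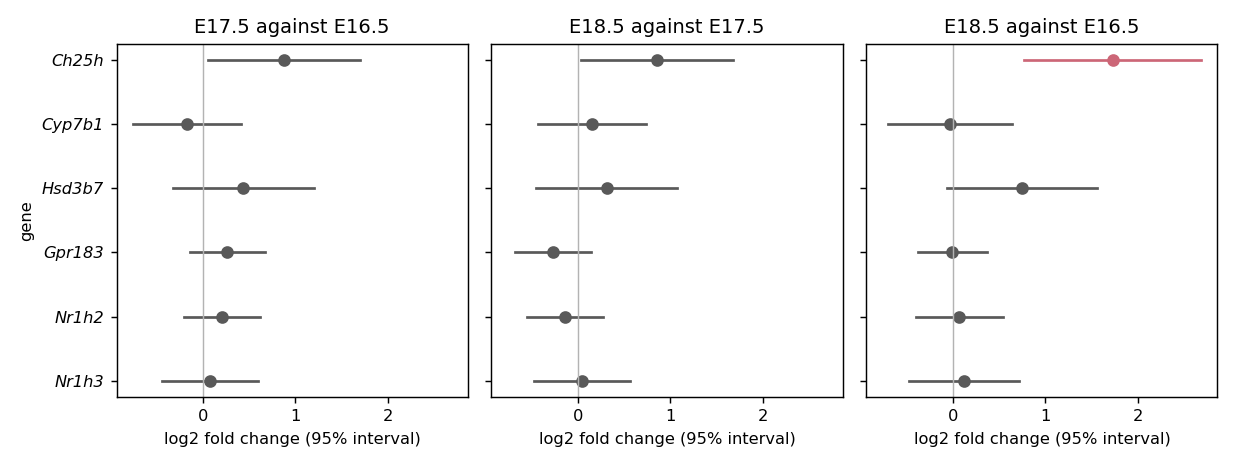
Log2 fold changes (x axis) of the 6 genes (y axis) for E17.5 against E16.5, E18.5 against E17.5 and E18.5 against E16.5, with the 95% interval of each as a line. Red marks an FDR q under 0.05: *Ch25h* at E18.5 against E16.5, with 1.73 (0.77 to 2.69), is the single red point, and the intervals of the other 5 genes include 0 in each panel.

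Genes around the pathway were described by lists written from general knowledge, each set against the median log2 change of all tested genes, -0.04, and the 3.71% called higher and 5.16% called lower. Of 15 other enzymes of oxysterol and bile acid metabolism, 7 were above the median of no array, among them *Cyp27a1* and *Cyp7a1*, hydroxylases that start the 2 routes of bile acid synthesis. Limma called 1 of the 8 tested higher and 1 lower and left 6 uncalled, with a median log2 change of 0.21. *Hsd11b1*, a dehydrogenase that activates glucocorticoids and also converts oxysterols, measured 8.47, 8.51 and 7.30 in E18.5 PLECs and 6.09, 5.49 and 6.53 in E16.5 PLECs. It rose by a log2 value of 2.06 (SE 0.37, FDR q = 0.014, limma), without overlap of the days. *Cyp39a1*, another oxysterol hydroxylase, measured 5.67, 5.19 and 5.03 in E18.5 PLECs and 6.02, 6.17 and 5.93 in E16.5 PLECs, and fell by 0.74 on the log2 scale (FDR q = 0.048, limma). *Soat1*, which esterifies cholesterol, changed over the 3 days (FDR q = 0.026, limma's F test) with means of 6.37 at E16.5, 5.83 at E17.5 and 6.48 at E18.5.

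Of the genes known to be switched on by LXRs, the log2 change was positive in 13 and negative in 3. Over all 14096 tested genes it was positive in 6399. Limma called 5 of the 16 tested LXR targets higher and 0 lower and left 11 uncalled, with a median log2 change of 0.30. *Scd1*, a fatty acid desaturase, measured 5.75, 5.77 and 6.02 in E18.5 PLECs and 3.01, 3.06 and 3.29 in E16.5 PLECs, and rose (FDR q = 0.00040, limma). Its E16.5 values lay below the array medians and it was above them in 4 of 9 samples, so the size of its rise is not given. *Apoe*, an apolipoprotein of cholesterol transport, measured 8.58, 8.44 and 7.81 in E18.5 PLECs and 6.17, 6.47 and 7.28 in E16.5 PLECs, and rose by 1.63 (FDR q = 0.017, limma). *Lpl*, lipoprotein lipase, rose by 1.03, *Mertk*, a receptor for dying cells, by 0.94 (FDR q = 0.015 and 0.037, limma). *Apoc1*, an apolipoprotein, rose too (FDR q = 0.024, limma), against an E16.5 mean below the array medians. Whether these rises came from PLECs or from other cells in the sort, whose markers are given below, was not tested. The cholesterol exporters *Abca1* and *Abcg1*, named for their place as defining LXR targets, had log2 changes of 0.36 (FDR q = 0.22, limma) and 0.16 (FDR q = 0.57, limma). *Srebf1* and *Fasn*, targets of fatty acid synthesis, had log2 changes of 0.06 (FDR q = 0.81, limma) and -0.31 (FDR q = 0.40, limma). *Nr1h3* is itself on this list, as a target of its own product.

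Of 10 genes by which oxysterols and cholesterol control sterol synthesis, 1 was lower and 9 were not called, with a median of -0.13. The 1 was *Scap*, the escort of the SREBP factors, which measured 6.51, 6.17 and 6.50 in E18.5 PLECs and 7.10, 6.95 and 6.99 in E16.5 PLECs and fell by 0.62 on the log2 scale (FDR q = 0.041, limma). None of 11 tested oxysterol-binding proteins passed (median 0.05); the 2 farthest from 0 were *Osbpl3* (-0.50, FDR q = 0.25, limma) and *Osbpl1a* (-0.45, FDR q = 0.15, limma).

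*Ch25h* is an interferon-stimulated gene in mouse macrophages, where Toll-like receptors and type I interferon raise it and *Atf3* represses it. Of 10 genes of that control, all tested, 3 were called higher, 0 lower and 7 in neither direction, with a median of 0.47. *Irf7*, an interferon regulatory factor, measured 7.12, 6.54 and 7.71 in E18.5 PLECs and 4.87, 4.42 and 4.42 in E16.5 PLECs and rose by a log2 value of 2.55 (FDR q = 0.0024, limma). *Stat2*, which carries interferon signals to the nucleus, rose by 1.03 (FDR q = 0.0071, limma). *Irf9*, its partner, had a log2 change of 0.74 (FDR q = 0.052, limma), and *Atf3* had one of 0.71 (FDR q = 0.078, limma). The study had listed interferon genes from these samples, so these counts are not independent evidence.

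**Figure D3:**
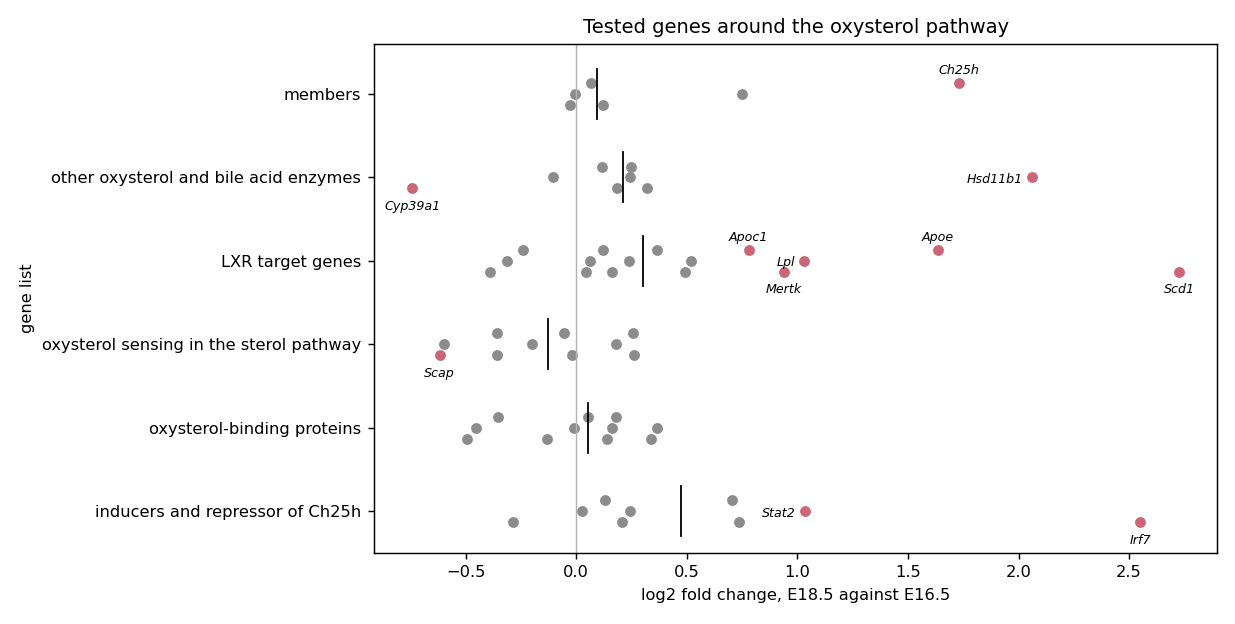
Log2 fold changes between E18.5 and E16.5 PLECs (x axis) of tested genes of 6 lists (y axis); the first row, members, holds the 6 genes followed here. Red points are named and have an FDR q under 0.05 for this comparison, 1 gene of the last list is not shown, and the black line is the median of the list's tested genes, from -0.13 for sterol sensing to 0.47 for the inducers and repressor of *Ch25h*. In each list most points are grey, and the positions of *Scd1* and *Apoc1* rest on E16.5 means below the array medians.

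The 3 genes whose values over the 9 samples were most like those of *Ch25h*, of 4925 tested genes with an SD of at least 0.3, were *Rasgef1a* (Pearson r = 0.975), *H2-Q4* (r = 0.973) and *Slc16a9* (r = 0.971). *Rasgef1a*, an exchange factor for Ras-type GTPases, measured 5.64, 5.39 and 5.08 at E16.5, 5.62, 5.82 and 5.66 at E17.5, and 5.73, 6.03 and 6.78 at E18.5. *H2-Q4*, a gene of the MHC class I family whose copies can share probes, rose by a log2 value of 1.02 between E18.5 and E16.5 (FDR q = 0.019, limma). *Slc16a9*, a monocarboxylate carrier, had a log2 change of 0.86 (FDR q = 0.070, limma). All 3 were highest in E18.5 replicate 3. The genes most like *Gpr183* were *Alb* (r = 0.839), *1500009C09Rik* (r = 0.838) and *Ighv5-17* (r = 0.826), an antibody segment of a family with similar copies. *Alb*, serum albumin, measured 4.24 in E17.5 replicate 2 and 2.61 to 3.11 in the other samples. All 3 genes were highest in that sample, were above the array median in it alone and entered the tests through it. Their r values with *Gpr183* therefore rest on that sample, and the other values lie below the array medians.

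Markers of other cells were measured in the same samples, and sorted cells are a mixture in which more cells of a type and more RNA per cell cannot be told apart. The list of lymphatic markers averaged 7.27, 7.69 and 7.40 in the E18.5 samples and 7.16, 7.37 and 7.09 in the E16.5 samples; of its 9 tested genes, *Pdpn*, used in the sort, rose by a log2 value of 1.46 (FDR q = 0.010, limma) and 8 did not pass. None of 6 pan-endothelial markers passed, with *Tek* at -0.33 and *Kdr* at -0.27. Blood endothelial markers averaged 8.16, 8.16 and 8.66 at E18.5 and 7.98, 7.50 and 7.49 at E16.5, so that E18.5 replicate 3, the sample with the highest *Ch25h*, was also the highest for this list. Its members differed in that sample: *Car4* was at its highest (8.85), while *Emcn* was at its lowest of the 9 samples (10.31). *Vwf* was there the lowest of the E18.5 samples (7.95). *Emcn* had a log2 change of -0.32 between E18.5 and E16.5 (FDR q = 0.26, limma). E18.5 replicate 3 was the highest for the inducers and repressor of *Ch25h* as well, which averaged 7.44, 7.30 and 7.63 in the E18.5 samples. The LXR targets averaged 6.52, 6.52 and 6.55 in the same samples, with little difference between them. Of the 10 blood endothelial markers, *Car4* rose by 3.62 and *Vwf* by 0.89, and *Plvap* fell by 0.76 on the log2 scale (FDR q = 0.0016, 0.023 and 0.041, limma). Their part in the *Ch25h* result was not tested.

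Epithelial and stromal genes also changed between these days, although Epcam+ epithelial cells had been gated out. Of 8 alveolar type I markers 7 rose, among them *Aqp5*, *Emp2* (2.61), *Ager* (2.43) and *Akap5* (1.61), and the list averaged 7.79, 8.05 and 8.03 at E18.5 against 6.20, 6.27 and 6.36 at E16.5. Of 8 alveolar type II markers 4 rose, namely *Slc34a2* (1.99), *Sftpa1* (1.63), *Lyz1* and *Sftpd*, and of 5 tested airway markers 1 rose (*Scgb1a1*, 4.06). The size for *Scgb1a1* rests on E16.5 values of 3.92, 4.12 and 3.87, close to the array medians. *Inmt* and *Dpt* rose among 9 tested fibroblast markers (3.19 for *Dpt*), *Npnt* of that list passed the F test over the 3 days (FDR q = 0.048, limma), and *Msln* and *Upk1b* among 5 tested mesothelial markers (2.41 and 2.02). The E16.5 means of *Aqp5*, *Lyz1*, *Sftpd* and *Inmt* lay at or below the array medians, so no size is given for them; *Sftpd* was above the medians in 3 of 9 samples. The fibroblast list averaged 7.50, 7.19 and 6.27 in E18.5 replicates 1, 2 and 3, and the platelet list 7.48, 6.89 and 5.53, so both were lowest in the replicate where *Ch25h* was highest. Of 9 platelet markers, *Treml1* rose by 1.20 (FDR q = 0.034, limma) and 8 did not pass. The log2 change was positive in all 9, with a median of 1.42. Over all 14096 tested genes it was positive in 6399, with a median of -0.04. None of 8 tested macrophage and monocyte markers passed, and their list of 12 averaged 4.73, 4.29 and 4.01 in E18.5 replicates 1, 2 and 3, again lowest in replicate 3. Of these 12, 4 were above the array median in all 9 samples and 4 in none. *Cd14* had the largest log2 change of that list, 1.35 (FDR q = 0.19, limma). No tested neutrophil (2), erythroid (3) or pericyte and smooth muscle (8) marker passed; the largest log2 changes in these lists were those of *S100a8* (0.73) and *S100a9* (0.63), *Alas2* (1.30), and *Tagln* (0.69) and *Kcnj8* (0.68). The part of epithelial, stromal or platelet RNA in the *Ch25h* result, or in the changes of the LXR targets and other listed genes, was not tested.

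**Figure D4:**
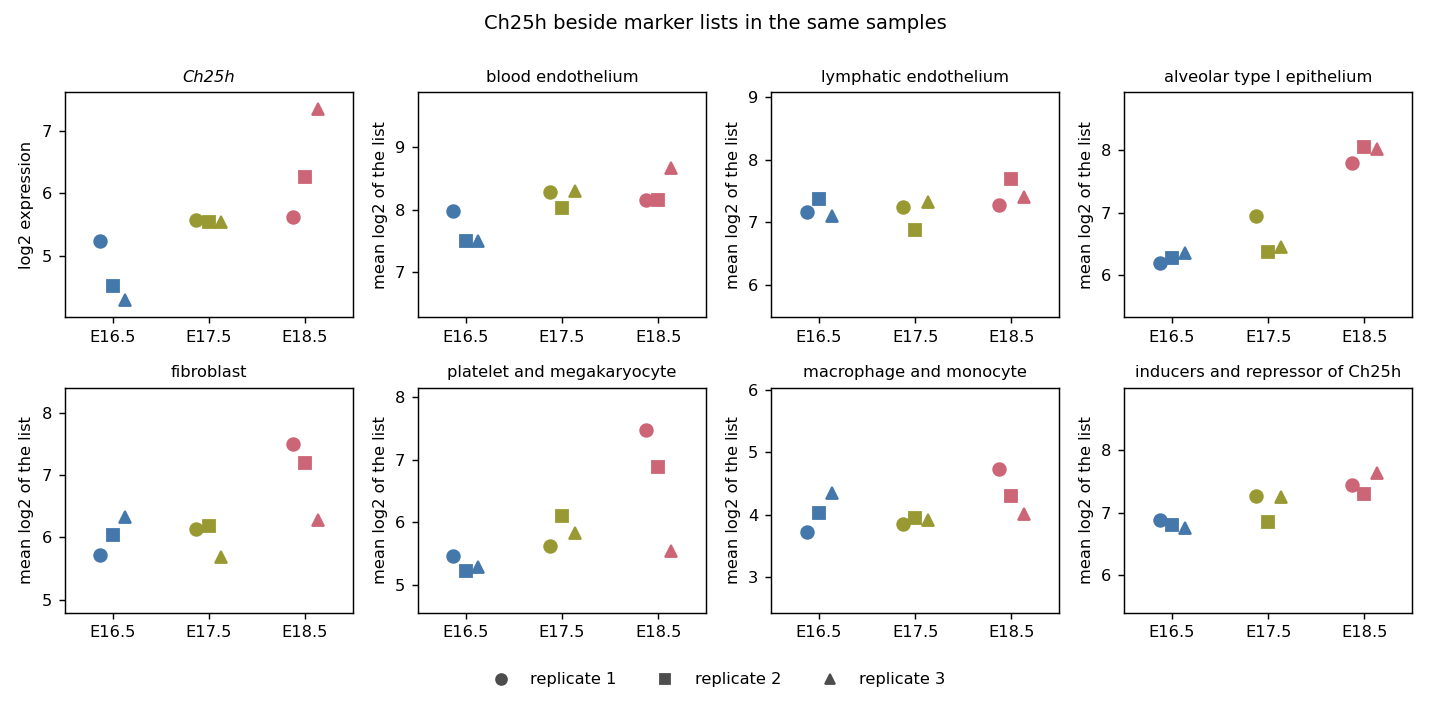
Log2 expression of *Ch25h* and mean log2 expression of 7 gene lists (y axes, 3.6 units in each panel) in each PLEC sample by embryonic day (x axis), with symbols for the replicate. In E18.5 replicate 3 *Ch25h* (7.35), the blood endothelial list (8.66) and the list of inducers and repressor of *Ch25h* (7.63) are at their highest. The fibroblast (6.27), platelet (5.53) and macrophage (4.01) lists are there the lowest of the E18.5 samples.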

How the data were processed

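The log2 values were made and deposited by the authors: Mouse Gene 2.0 ST arrays were processed by RMA with affy 1.36.1 under R 2.15.1 and a probe mapping to Entrez Gene (Brainarray, version 17), with quantile normalization over the 9 arrays. This normalization, made before the summary per gene, can hide global shifts between days, and raw intensities were not used here. The medians of the summarized values still differed by day. They were 3.786 to 3.817 at E16.5, 3.822 to 3.872 at E17.5 and 3.864 to 3.914 at E18.5. Symbols came from RefSeq by Entrez Gene number for 23740 of 25206 genes, and promoter sequences from RefSeq (GRCm38.p6). A gene entered the tests if it exceeded the median of 1 or more of the 9 arrays (14096 genes), and limma 3.58.1 (R 4.3.3) was used. A moderated F test and contrasts of neighbouring days used all 9 arrays, and E18.5 against E16.5 used the 6 arrays of those days. The variance prior was estimated on the tested genes, and the Benjamini-Hochberg correction over them gave the FDR q. Calls needed an FDR q under 0.05, and verbs of change are used of called genes only.

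The 6 genes, the gene lists and the tests were chosen with earlier results of these data known. Named were the 6 genes, up to 6 called genes of each pathway list and up to 4 of each cell type list by size of change (the 2 largest where none was called), and the 3 genes most like *Ch25h* and *Gpr183* among those with an SD of at least 0.3. *Cyp27a1*, *Cyp7a1*, *Abca1*, *Abcg1*, *Srebf1*, *Fasn*, *Irf9*, *Atf3* and *Emcn* were named for their role after their values were seen. *Ccl21a*, *Lyz2*, *Hba-a1* and *Hbb-bt* were not matched. Some list genes that the rule would name are not reported here. Arrays give no counts, so the number of arrays limits precision. The fits were tested on simulated data. Replicate numbers were not used as pairs. The alternatives were no filter, a filter at 3 arrays, median centring, a second quantile normalization, an intensity trend with robust settings, array weights, the replicate block, all 9 arrays in 1 fit, a prior on all genes, and leaving out each sample.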

Additional observations from a re-analysis of the deposited data

How the results depend on the processing

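Of 488 values of the 6 genes under the alternatives, 441 kept their direction and their side of the threshold, 16 (all of *Ch25h*) lost the call and 31 changed sign; none gained a call. *Ch25h* at E18.5 against E16.5 had a log2 change of 1.73 with FDR q = 0.093 (limma) with no filter and 0.055 with the prior estimated on all genes, an alternative chosen after seeing the data. The study's own list also gave *Ch25h* an FDR q of 0.055 by limma. The F value of *Ch25h* over the 3 days was 10.3 (FDR q = 0.078, limma) with no filter. Leaving out 1 sample gave *Ch25h* log2 changes of 1.26 to 2.12 and F values of 7.11 to 20.1, with the call over the 3 days lost without E16.5 replicate 2 or 3, any E17.5 replicate or E18.5 replicate 2.

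None of the sign changes was past the test. *Nr1h2* at E18.5 against E16.5 was -0.011 with arrays centred on their median. With array quality weights *Gpr183* and *Nr1h3* at E18.5 against E16.5 were 0.097 and -0.070, *Nr1h3* at E17.5 against E16.5 was -0.095, and its difference between the steps was 0.12. Leaving out 1 sample gave, for E18.5 against E16.5, -0.13 to 0.12 for *Gpr183*, -0.10 to 0.21 for *Nr1h2*, -0.10 to 0.40 for *Nr1h3* and -0.29 to 0.33 for *Cyp7b1*. For E17.5 against E16.5 it gave -0.14 to 0.35 for *Nr1h3*. For E18.5 against E17.5 it gave -0.11 to 0.51 for *Cyp7b1*, -0.31 to 0.0069 for *Nr1h2*, -0.10 to 0.17 for *Nr1h3* and -0.16 to 0.55 for *Hsd3b7*. For the difference between the steps it gave -0.49 to 0.37 for *Ch25h*, -0.31 to 0.19 for *Nr1h3* and -0.59 to 0.28 for *Hsd3b7*.

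Counts of called genes moved more. At E18.5 against E16.5, 1140 genes were lower with centred arrays and 1118 with all 9 arrays in 1 fit, against 728, and centring gave 468 higher, against 523. At E17.5 against E16.5, where 22 were lower and 0 higher, no filter and a second quantile normalization each gave 1 lower, and array weights gave 190 higher and 430 lower. At E18.5 against E17.5, no filter gave 87 higher and 56 lower, against 161 and 90. Leaving out 1 sample gave 591 to 1269 genes changed over the 3 days (1110 with all samples), 213 to 624 higher and 243 to 606 lower at E18.5 against E16.5, 0 to 2 higher and 0 to 22 lower at E17.5 against E16.5, 19 to 418 higher and 0 to 189 lower at E18.5 against E17.5, and 0 to 1 for the higher difference between the steps. The cause was not tested.

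The replicate numbers do not pair the samples: of 9 pairs with the same number, 2 correlated at over 0.1 (range -0.36 to 0.29), and for 0 of the samples was the same-numbered one the closest on each of the other days. With the replicate block, *Ch25h* had a log2 change of 1.73 with FDR q = 0.086 and an F value of 9.37 with FDR q = 0.082 (limma), and the counts were 0 lower at E17.5 against E16.5 and 89 higher and 30 lower at E18.5 against E17.5. *Cyp7b1* and *Gpr183* had no value under the filter at 3 arrays, which left 13053 genes. Their signals lay near the array median, which limits what these arrays can show of them.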
